A study of Mus musculus with 45 samples.

Results

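Lipid droplet and triglyceride storage was followed through 10 genes of the 22080 in the deposited expression table: the droplet coat genes Plin2, Plin3, Plin4 and Plin5, the CIDE genes Cideb and Cidec, the patatin-like lipase genes Pnpla2 and Pnpla3, and the acyltransferase genes Dgat1 and Dgat2. They were selected by symbol for their known role, with earlier results of these data known, and all 10 were found. Expression was measured in liver, kidney and brain of male C57BL/6 mice, aged 7 weeks when the study began and sacrificed on day 43, after food and water had been withheld for some hours. Mice received the AIN-93 diet (Control), that diet with 0.5% cholesterol (HCD), HCD with 1% of extract Gl-1 or of extract Gl-2 of the mushroom Ganoderma lucidum (HCD+Gl-1, HCD+Gl-2), or HCD with 0.03 g of simvastatin per 100 g of food (HCD+Sim). Gl-2 came from mushrooms cultivated with acetylsalicylic acid, Gl-1 from mushrooms cultivated without it, and simvastatin is an inhibitor of cholesterol synthesis. Each of the 15 tissue and diet groups had 3 arrays. By the paper's methods, RNA of 4 of the 8 mice went into pool A and RNA of the remaining 4 into pool B. Pool C is described as A plus B. On that description the 3 arrays stem from 2 independent pools, and p-values measure only the spread between such arrays. The pool C value lay between those of pools A and B in 34 of the 150 member values of the 15 groups (22.7%), against 28.3% over all genes.

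Triglyceride is stored in cytosolic droplets, each a core of neutral lipid under a single layer of phospholipid. Dgat1 and Dgat2 encode the enzymes that attach the last fatty acid to diacylglycerol, perilipins coat the droplet and control access to it, CIDE proteins drive droplets to exchange lipid and grow and, in liver, take part in loading very low density lipoprotein, and the Pnpla2 product ATGL starts triglyceride breakdown with Abhd5 as its cofactor. In hepatocytes these droplets buffer fatty acids between meals and are the structures that expand in fatty liver.

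Values are log2 expression after normalization by the authors. Array medians were 6.76 to 6.92 and values ran from 2.13 to 14.02, and no detection call came with them, so a value near the array median is not by itself evidence of expression. The tissues carried their own markers: the mean of 7 hepatocyte markers was 13.35 to 13.44 in liver arrays and at most 8.36 in the others, that of 7 kidney markers was 11.58 to 11.76 in kidney and at most 6.13 elsewhere, and that of 7 neuron and glia markers was 11.31 to 11.50 in brain and at most 6.76 elsewhere. Liver HCD+Sim arrays of pools A and B stood apart, with a mean of 10 pancreas acinar markers of 7.23 and 7.79 (pool C 6.09, other liver arrays 5.83 to 6.11) and of 11 skeletal muscle markers of 7.49 and 7.87 (pool C 6.50, Control 6.81 to 7.00). In these markers pool C did not lie between A and B, where a mix of them would be expected, and the reason was not tested. Differential expression (DE) required a log2 fold change above 0.7 in size together with a limma adjusted p no higher than 0.05, and "passed the test" means the adjusted p alone. With 3 arrays against 3, an exact two-sided permutation test could not give a p below 0.1, so only the model across all genes was used.

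In liver, Plin2 was the member that moved in the most diet comparisons. Plin2 encodes perilipin 2, the ubiquitous coat protein of hepatocyte droplets. Its log2 expression was 11.69, 11.76 and 11.60 in the Control arrays of pools A, B and C, and 11.24, 11.21 and 11.22 in HCD. It was 11.70, 11.35 and 11.86 in HCD+Gl-1, 11.18, 11.23 and 11.01 in HCD+Gl-2, and 11.50, 11.49 and 11.47 in HCD+Sim. All HCD and HCD+Gl-2 arrays were below all Control, HCD+Gl-1 and HCD+Sim arrays, and the HCD+Gl-1 arrays spread the most. Plin2 was 1.37-fold lower under HCD than under Control (log2 fold change -0.45 ± 0.11 SE, 95% interval -0.68 to -0.23, adjusted p = 0.0226). HCD+Gl-1 was 1.33-fold above HCD (0.41 ± 0.11, adjusted p = 0.0356). HCD+Gl-2 did not pass against HCD (-0.09 ± 0.11, 95% interval -0.31 to 0.14, adjusted p = 0.822), and was 1.41-fold below HCD+Gl-1 (-0.50 ± 0.11, adjusted p = 0.00821) and 1.45-fold below Control (-0.54 ± 0.11, adjusted p = 0.002). HCD+Sim lay 0.26 ± 0.11 above HCD with every array higher, but did not pass (adjusted p = 0.311). These comparisons share arrays: the same HCD arrays serve against Control and against each treatment.

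**Figure D1:**
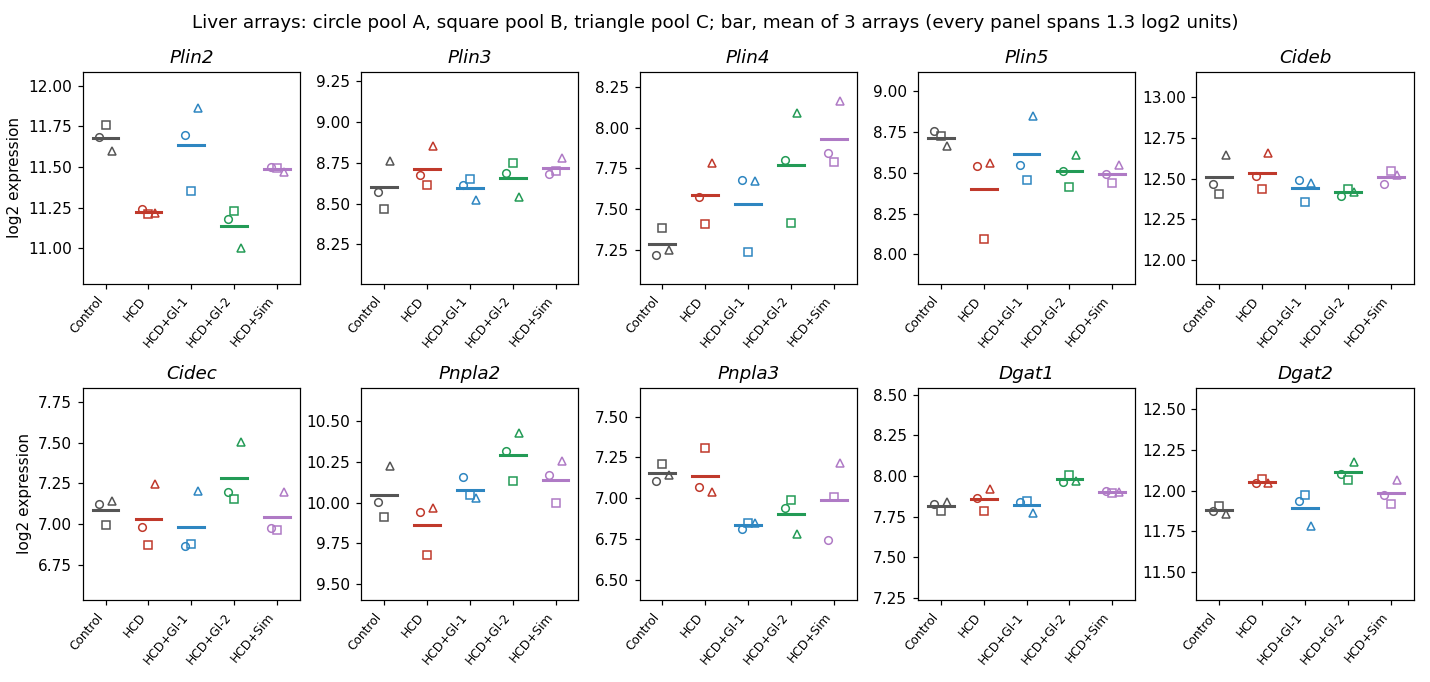
Log2 expression of the 10 genes in the 15 liver arrays, by diet, with the mean of 3 arrays as a bar and a symbol for each pool. Plin2 arrays of HCD and HCD+Gl-2 lie at 11.01 to 11.24 and those of the other diets at 11.35 to 11.86. Dgat1 spans 7.77 to 8.01 over all 15 arrays.

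The fall of Plin2 under HCD+Gl-2 against Control passed in all 13 alternative analyses, and the other Plin2 calls kept their direction in all of them but not their adjusted p. In fits limited to liver arrays or to the compared groups, this was the only one of the 7 member calls in liver diet comparisons that passed, the other 6 having an adjusted p of 0.0671 to 0.508. With pools A and B only, the HCD+Gl-1 call against HCD (adjusted p = 0.242) and the HCD+Gl-2 call against HCD+Gl-1 (0.233) were lost. The HCD call missed the threshold without Control A, Control B or any HCD array (adjusted p 0.0721 to 0.122), the HCD+Gl-1 call without any HCD array or HCD+Gl-1 A or C (0.0765 to 0.308), and the HCD+Gl-2 against HCD+Gl-1 call without HCD+Gl-1 C or HCD+Gl-2 C (0.139 and 0.0572). Macrophages also express Plin2. The mean of 7 macrophage markers was 8.48 in Control, 8.17 in HCD, 8.30 in HCD+Gl-1, 8.29 in HCD+Gl-2 and 8.46 in HCD+Sim livers, and 1 of the 7, Marco, fell under HCD (-0.64 ± 0.11, adjusted p = 0.000837) to a mean of 6.44, below every array median. The part of macrophages in the Plin2 values was not tested, and in tissue RNA fewer cells of a type and less RNA per cell cannot be told apart.

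Plin4 was the only other perilipin gene to pass a liver diet test. It encodes the coat protein of nascent droplets, known from adipocytes and muscle. In liver it was 7.22, 7.39 and 7.25 in Control, 7.57, 7.41 and 7.78 in HCD, 7.68, 7.24 and 7.67 in HCD+Gl-1, 7.80, 7.42 and 8.09 in HCD+Gl-2, and 7.84, 7.79 and 8.16 in HCD+Sim. All HCD+Sim arrays were above all Control and HCD arrays, whereas HCD+Gl-1 B (7.24) lay among the Control arrays, and HCD B (7.41) and HCD+Gl-2 B (7.42) lay just over the highest of them (7.39). Against Control, Plin4 was 1.57-fold higher under HCD+Sim (0.65 ± 0.14 SE, 95% interval 0.36 to 0.94, adjusted p = 0.00919), and HCD+Gl-2 missed the threshold (0.48 ± 0.14, adjusted p = 0.0571). Against HCD, Plin4 under HCD+Sim did not pass (0.34 ± 0.14, adjusted p = 0.306), nor did HCD itself against Control (0.30 ± 0.14, adjusted p = 0.453). Muscle markers were high in HCD+Sim A and B but not in C, which had the highest Plin4. With A and B left out together, which leaves C as the only HCD+Sim array, the difference against Control was 0.88. Without C it was 0.53 (adjusted p = 0.0962). Without Control A the adjusted p was 0.0534. None of 8 adipocyte markers passed in that comparison. Their mean was 6.10, 6.22 and 6.00 in Control and 6.00, 6.07 and 6.28 in HCD+Sim livers, so that HCD+Sim C was the highest of the 15 liver arrays in this mean as in Plin4, and the part of adipocytes in the Plin4 value was not tested.

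Plin5, the coat protein that ties droplets to mitochondria in oxidative tissue, was 8.76, 8.72 and 8.66 in Control livers and 8.54, 8.09 and 8.56 in HCD livers. Every HCD array was below every Control array, but the difference did not pass (-0.32 ± 0.10 SE, adjusted p = 0.113). HCD+Gl-1 against HCD gave 0.22 ± 0.10 (adjusted p = 0.241), and over the 15 liver arrays Pearson's r of Plin5 with Plin2 was 0.589, given as a description. Plin5 ranged from 8.41 to 8.85 under the 3 treatments. Plin3, which moves from the cytosol onto new droplets, ran from 8.47 to 8.85 over the 15 liver arrays, and its widest liver difference was 0.12 ± 0.08 (HCD+Sim against Control, adjusted p = 0.599). Plin4 and Plin5 are neighbouring genes on chromosome 17, where Plin3 also lies, and in liver HCD against Control Plin4 was 0.30 above and Plin5 0.32 below.

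Pnpla2 encodes ATGL, the first lipase of triglyceride breakdown. Its liver values were 10.01, 9.91 and 10.23 in Control, 9.94, 9.68 and 9.97 in HCD, 10.16, 10.05 and 10.03 in HCD+Gl-1, 10.32, 10.13 and 10.43 in HCD+Gl-2, and 10.17, 10.00 and 10.26 in HCD+Sim. All arrays of the 3 treatments were above all HCD arrays, and Control overlapped each of the other groups. Only HCD+Gl-2 passed the test against HCD, at 1.35-fold (0.43 ± 0.10 SE, 95% interval 0.22 to 0.64, adjusted p = 0.0207), a call that missed the threshold without HCD B, HCD+Gl-2 A or HCD+Gl-2 C (adjusted p 0.0677 to 0.162). HCD+Gl-1 gave 0.21 ± 0.10 (adjusted p = 0.299) and HCD+Sim 0.28 ± 0.10 (adjusted p = 0.247). HCD+Gl-2 against HCD+Gl-1 gave 0.21 ± 0.10 (95% interval 0.0024 to 0.43, adjusted p = 0.247), so the extracts were not shown to differ on this gene.

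Pnpla3, a relative of ATGL on hepatocyte droplets that is known from fatty liver and binds the ATGL cofactor, was 7.10, 7.21 and 7.14 in Control, 7.07, 7.31 and 7.04 in HCD, 6.81, 6.85 and 6.85 in HCD+Gl-1, 6.94, 6.99 and 6.78 in HCD+Gl-2, and 6.74, 7.00 and 7.22 in HCD+Sim. All arrays of both extracts were below all Control and HCD arrays, and the HCD+Sim arrays overlapped every group. The HCD+Gl-1 values lay close to the medians of those arrays (6.76, 6.78 and 6.79), where expression above background is not shown. HCD+Gl-1 was 1.25-fold below Control (-0.32 ± 0.09 SE, 95% interval -0.51 to -0.13, adjusted p = 0.0433) and missed the threshold against HCD (-0.30 ± 0.09, adjusted p = 0.0666). HCD+Gl-2 gave -0.24 ± 0.09 against HCD (adjusted p = 0.237) and -0.25 ± 0.09 against Control (adjusted p = 0.165). The HCD+Gl-1 call against Control passed in 4 of 13 alternatives, and was lost without any Control array and without HCD+Gl-1 A or C (adjusted p 0.065 to 0.155). In the same comparison 6 of 11 muscle markers and 1 of 4 stellate cell markers, Des, also fell (Des -0.73 ± 0.16, adjusted p = 0.00637), and their part in the Pnpla3 value was not tested. In HCD+Sim livers Des was 7.46, 7.67 and 6.52 in pools A, B and C, high in A and B as the muscle markers were. Its fall is therefore not shown to be a stellate cell change.

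Dgat2, the acyltransferase that handles newly made fatty acids in liver, was 11.88, 11.91 and 11.85 in Control and 12.04, 12.07 and 12.05 in HCD. It was 11.93, 11.97 and 11.78 in HCD+Gl-1, 12.10, 12.06 and 12.18 in HCD+Gl-2, and 11.97, 11.92 and 12.06 in HCD+Sim. HCD and HCD+Gl-2 arrays did not overlap with Control or HCD+Gl-1 arrays, yet no difference passed (HCD against Control 0.18 ± 0.11 SE, adjusted p = 0.638, HCD+Gl-2 against Control 0.23 ± 0.11, adjusted p = 0.315). This SE pools the spread of all 15 groups, including brain Control, where Dgat2 was 8.78, 8.38 and 9.32. The SD of the liver arrays was 0.015 in HCD and 0.027 in Control. In the fit limited to liver arrays Dgat2 did not pass in these comparisons either. Dgat1, the partner enzyme that re-esterifies fatty acids from outside, was 7.96, 8.01 and 7.97 in HCD+Gl-2 and 7.77 to 7.92 in the other liver groups. HCD+Gl-2 gave 0.16 ± 0.07 above Control (adjusted p = 0.227) and 0.12 ± 0.07 above HCD (adjusted p = 0.457).

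Of the CIDE genes, Cidec, whose product enlarges droplets, was 6.98, 6.87 and 7.24 in HCD and 7.20, 7.15 and 7.50 in HCD+Gl-2 livers, which overlapped. It did not pass in HCD+Gl-2 against HCD (0.25 ± 0.10 SE, adjusted p = 0.26) or against HCD+Gl-1 (0.30 ± 0.10, adjusted p = 0.081). Cideb, whose product acts in lipoprotein lipidation, stayed within 12.35 to 12.66 over the 15 liver arrays, with the largest liver difference against HCD or Control at -0.12 ± 0.08 (HCD+Gl-2 against HCD, adjusted p = 0.56).

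Counted over the 10 genes, limma called none DE in any liver diet comparison. Against all genes the DE share was 0.245% for HCD against Control, 0.163% for HCD+Gl-1, 0.303% for HCD+Gl-2 and 0.258% for HCD+Sim against HCD, and 0 of 10 is near that background. By the adjusted p alone 1 of 10 passed for HCD against Control (background 1.34%), 1 for HCD+Gl-1 (2.48%), 1 for HCD+Gl-2 (1.7%) and 0 for HCD+Sim against HCD (1.1%). At an unadjusted p under 0.05 the counts were 3, 4, 3 and 3 of 10, beside 10.3%, 16.6%, 12.6% and 11.7% of all genes. A count of 1 of 10 does not set the genes apart from the table. HCD+Gl-2 against HCD+Gl-1 gave 0 DE (background 0.172%) and 1 passed (3.94%). Against Control, HCD+Gl-1 gave 0 DE (0.322%) and 1 passed (3.58%), HCD+Gl-2 0 DE (0.584%) and 1 passed (2.86%), and HCD+Sim 0 DE (0.358%) and 1 passed (1.54%). The median log2 fold change of the 10 genes was 0.01 for HCD against Control, -0.05 for HCD+Gl-1, 0.08 for HCD+Gl-2 and 0.03 for HCD+Sim against HCD, beside -0.01, -0.01, 0.01 and 0.03 over all genes. The 40 liver fold changes of these 4 comparisons ran from -0.45 (Plin2) to 0.43 (Pnpla2), and no 95% interval among them reached 0.7 in either direction.

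Promoter sequence is shown for the 4 genes with a passed diet test in liver, so that their start regions can be compared. RefSeq promoters (GRCm38.p6) matched 8 of the 10 genes, all but Dgat1 and Dgat2. The 250 bases before the start are given 5′ to 3′ on the gene's strand, for Plin2 at chr4:86670060-86670309 (minus), Plin4 at chr17:56109783-56110032 (minus), Pnpla2 at chr7:141454938-141455187 (plus) and Pnpla3 at chr15:84167566-84167815 (plus). Capitals mark any match, on either strand, to the nuclear receptor half-site AGGTCA, to the E-box CACGTG, which reads alike on both strands, to the promoter box CCAAT, to the start site motif TATAAA or to the GC box GGGCGG.
Plin2: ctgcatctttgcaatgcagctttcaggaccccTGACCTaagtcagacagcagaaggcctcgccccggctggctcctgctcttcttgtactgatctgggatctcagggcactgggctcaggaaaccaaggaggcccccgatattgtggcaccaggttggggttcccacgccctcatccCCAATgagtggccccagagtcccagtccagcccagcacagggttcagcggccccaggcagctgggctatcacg
Plin4: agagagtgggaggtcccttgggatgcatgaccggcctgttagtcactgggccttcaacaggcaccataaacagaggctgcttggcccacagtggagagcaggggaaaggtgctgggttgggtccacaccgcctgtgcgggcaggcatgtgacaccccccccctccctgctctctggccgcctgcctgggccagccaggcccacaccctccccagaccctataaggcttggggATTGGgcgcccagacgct
Pnpla2: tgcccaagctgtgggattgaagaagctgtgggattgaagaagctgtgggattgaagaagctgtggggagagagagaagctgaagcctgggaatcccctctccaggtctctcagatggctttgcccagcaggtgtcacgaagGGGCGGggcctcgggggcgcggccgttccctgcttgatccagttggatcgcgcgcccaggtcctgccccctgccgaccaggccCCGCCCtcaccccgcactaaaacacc
Pnpla3: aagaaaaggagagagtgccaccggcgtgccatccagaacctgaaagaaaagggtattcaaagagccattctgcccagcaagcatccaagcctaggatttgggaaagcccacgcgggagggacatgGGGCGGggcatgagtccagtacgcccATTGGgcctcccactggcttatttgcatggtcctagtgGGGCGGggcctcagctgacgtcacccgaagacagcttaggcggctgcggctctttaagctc
Plin2 held 1 half-site on the reverse strand and 1 CCAAT, Plin4 held 1 reverse CCAAT, Pnpla2 held 2 GC boxes, and Pnpla3 held 2 GC boxes and 1 reverse CCAAT. The motifs are common: over 32851 listed starts, 14% held the half-site, 6.02% the E-box, 33.8% CCAAT, 12.4% TATAAA and 32.7% the GC box in the same window, and the 10 listed starts of the 8 matched genes held them in 2, 0, 5, 1 and 6 cases. A match is a string of letters, not a shown binding site. No capitals in the matched strings overlapped with another motif.

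In kidney, none of the 10 genes was DE or passed the test in any diet comparison. The DE background was 0.0408% for HCD against Control, 0.131% for HCD+Gl-1, 0.335% for HCD+Gl-2 and 0.14% for HCD+Sim against HCD, and by adjusted p alone it was 0.131%, 0.267%, 0.996% and 0.222%. At an unadjusted p under 0.05 the counts were 1 (Dgat1), 0, 1 (Cideb) and 0 of 10, near the 4.47%, 4%, 8.97% and 6.19% of all genes. Cideb came closest: it was 12.49, 12.58 and 12.51 in HCD and 12.34, 12.30 and 12.12 in HCD+Gl-2 kidneys, with every HCD+Gl-2 array below every HCD array (-0.27 ± 0.08 SE, adjusted p = 0.0755), and 3 of 13 alternatives put it past the threshold. Dgat1 under HCD lay 0.16 ± 0.07 above Control (adjusted p = 0.911). The 40 kidney fold changes ran from -0.27 (Cideb) to 0.20 (Dgat2, HCD+Gl-2 against HCD).

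In brain, none was DE or passed either. The DE background was 0.0317% for HCD against Control, 0.00906% for HCD+Gl-1, 0.0226% for HCD+Gl-2 and 0% for HCD+Sim against HCD, and by adjusted p alone 0.0543%, 0.0181%, 0.0362% and 0.0181%. At an unadjusted p under 0.05 the counts were 1 (Dgat2), 0, 0 and 0 of 10, near the 6.44%, 5.55%, 6.65% and 5.53% of all genes. Dgat2 in Control brains was 8.78, 8.38 and 9.32, the widest spread of the 10 genes in any group. HCD brains were at 9.12, 9.16 and 8.95. HCD against Control gave 0.25 ± 0.11 SE (adjusted p = 0.689). This value rests on single Control arrays: it was 0.50 without Control C (adjusted p = 0.00019) and 0.03 without Control B (adjusted p = 1). The same Control C array had the lowest Control values of Plin2 (6.78 against 7.20 and 7.36) and Pnpla2 (7.93 against 8.44 and 8.44).

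**Figure D2:**
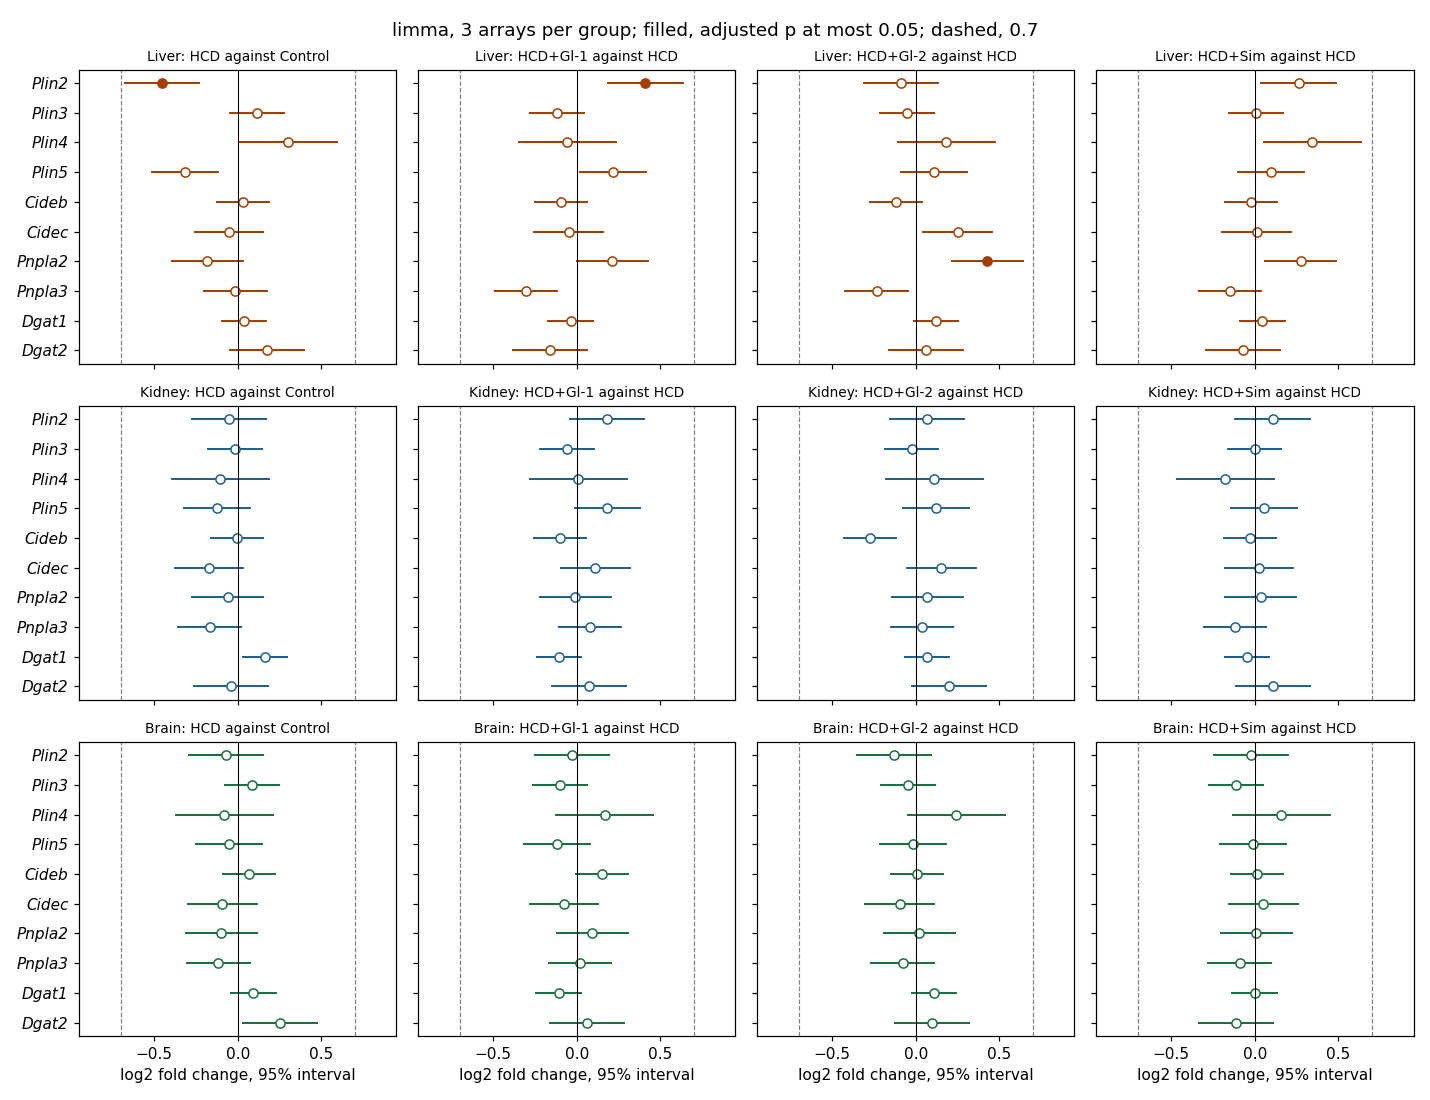
Log2 fold change of the 10 genes with its 95% interval in 12 diet comparisons, 3 arrays per group. Filled points passed the adjusted p of limma: Plin2 in liver HCD against Control (-0.45) and HCD+Gl-1 against HCD (0.41), and Pnpla2 in liver HCD+Gl-2 against HCD (0.43). Dashed lines mark the fold change threshold of 0.7, which no interval reaches.

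Whether a diet response differed between liver and kidney was tested as a difference of differences. By the paper's methods, liver and kidney of a diet group came from the same mice. The model took all arrays as independent, here and in the tissue comparisons below, and did not use that pairing. None of the 10 genes passed for HCD against Control (background 0.263%), HCD+Gl-1 (0.389%), HCD+Gl-2 (0.625%) or HCD+Sim against HCD (0.299%), with the lowest adjusted p at 0.257 (Pnpla3, HCD+Gl-1 against HCD). For Plin2 under HCD the adjusted p was 0.483. At an unadjusted p under 0.05 the counts were 1, 1, 2 and 1 of 10, beside 7.13%, 10.4%, 8.89% and 9.59% of all genes. The liver calls are therefore not shown to be particular to liver.

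Plin2, Dgat2, Plin5 and Plin3 separated the 3 tissues on every array. The share of all genes that did so was not counted, so this is a description and does not set these genes apart from the table. Over 15 arrays per tissue, Plin2 ran from 11.01 to 11.86 in liver (median 11.47), 9.27 to 9.59 in kidney (9.44) and 6.69 to 7.36 in brain (7.04), without overlap. On the Control diet it was 4.86-fold higher in liver than in kidney (2.28 ± 0.11 SE, adjusted p = 9.18e-21) and 4.88-fold higher in kidney than in brain (2.29 ± 0.11, adjusted p = 4.31e-21). Dgat2 fell into the same order, at 11.78 to 12.18 in liver (median 11.97), 10.71 to 10.99 in kidney (10.82) and 8.38 to 9.32 in brain (9.09). Plin5 was at 8.09 to 8.85 in liver, 7.14 to 7.49 in kidney and 6.50 to 6.93 in brain. Plin3 was at 8.47 to 8.85 in liver, 8.23 to 8.39 in kidney and 7.48 to 7.82 in brain.

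Cideb and Pnpla2 did not separate liver from kidney. Cideb was at 12.35 to 12.66 in liver, 12.12 to 12.58 in kidney and 7.41 to 7.86 in brain, with liver minus kidney at -0.02 ± 0.08 on the Control diet (95% interval -0.18 to 0.13, adjusted p = 0.817) and kidney 31.6-fold above brain (4.98 ± 0.08, adjusted p = 2.25e-37). Pnpla2 was at 9.68 to 10.43 in liver, 9.85 to 10.12 in kidney and 7.93 to 8.44 in brain, with liver minus kidney at 0.04 ± 0.10 (adjusted p = 0.759) and 0.11 over the mean of the 5 diets (adjusted p = 0.0339). Dgat1 (medians 7.87, 7.68 and 7.11 in liver, kidney and brain) and Plin3 (8.68, 8.30 and 7.69) stepped down by smaller amounts. Plin4 (7.67, 6.75 and 6.70) and Cidec (7.12, 6.42 and 6.36) were higher in liver, while kidney and brain did not differ beyond their spread (adjusted p = 0.341 and 0.561). These kidney and brain medians, and that of Pnpla3 in kidney, lay below every array median, where expression above background is not shown. Pnpla3 was the exception in order, with medians of 7.00 in liver, 6.56 in kidney and 7.11 in brain: kidney was 0.60 ± 0.09 below brain (adjusted p = 3.91e-07), and liver did not differ from brain on the Control diet (-0.12 ± 0.09, adjusted p = 0.242), though it did over the mean of the 5 diets (-0.15, adjusted p = 0.00125).

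Counted on the Control diet, 8 of 10 genes passed as higher in liver than in kidney (background 24.1%), 3 of them DE (6.78%). Higher in liver than in brain were 9 of 10 (41.5%), 7 DE (15.5%). Higher in kidney than in brain were 7 of 10 (33.7%), 4 DE (15.7%), and 1 of 10, Pnpla3, was lower (25.4%). The median difference of the 10 genes was 0.46, 1.37 and 0.61, beside 0.06, 0.14 and 0.08 over all genes.

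**Figure D3:**
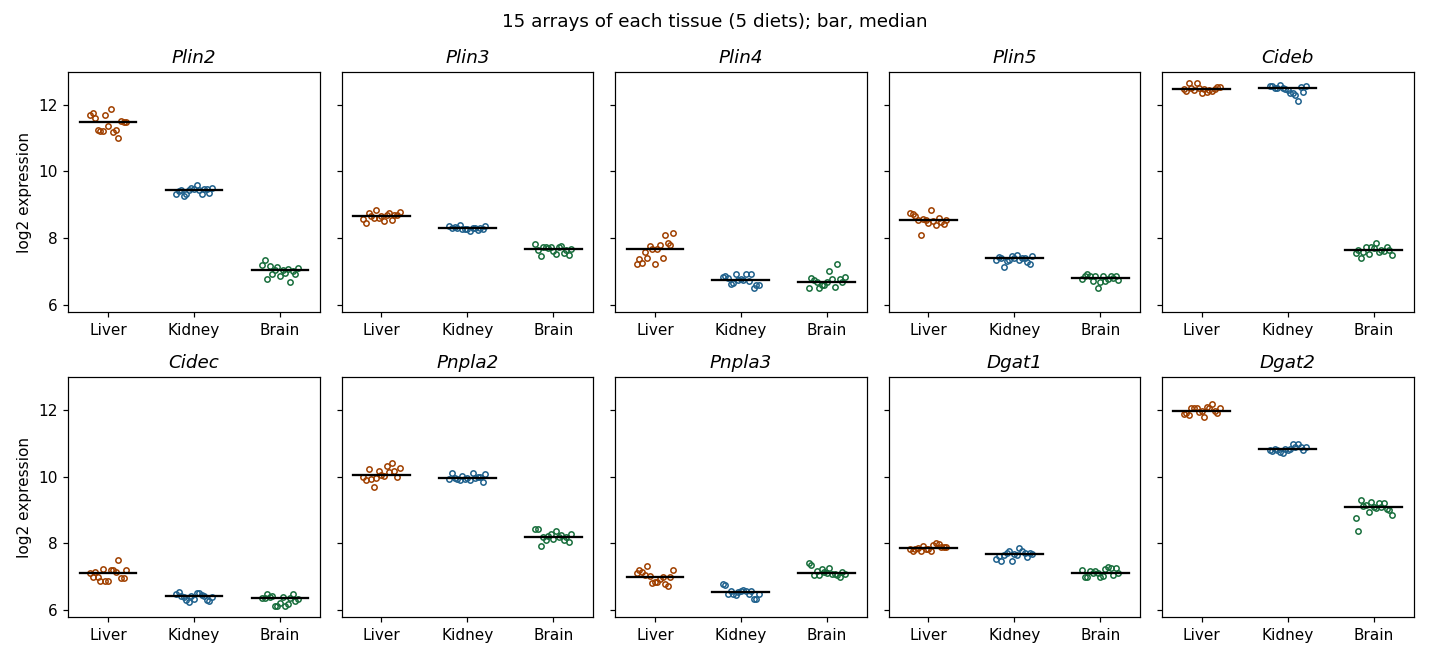
Log2 expression of the 10 genes in the 15 arrays of each tissue (5 diets with 3 arrays each), with the median as a bar. Plin2 (medians 11.47, 9.44 and 7.04), Plin3, Plin5 and Dgat2 separate all 3 tissues. Cideb is near 12.5 in liver and kidney and 7.65 in brain, and Pnpla3 is lowest in kidney. Levels of different genes come from different probe sets and are not comparable with each other.

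Plin2 and Dgat2 ran in opposite directions across livers. Over the 15 liver arrays Pearson's r was -0.917, the lowest of the 45 pairs of the 10 genes and the only one beyond 0.7 in either direction, a pair picked out after the values were seen. With each diet group's mean removed, r was -0.665. In kidney r was 0.281, and in brain -0.726 (-0.713 with group means removed), where Control C and its high Dgat2 enter. These points share normalization and batch adjustment, include pool C mixes, and are given as a description.

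**Figure D4:**
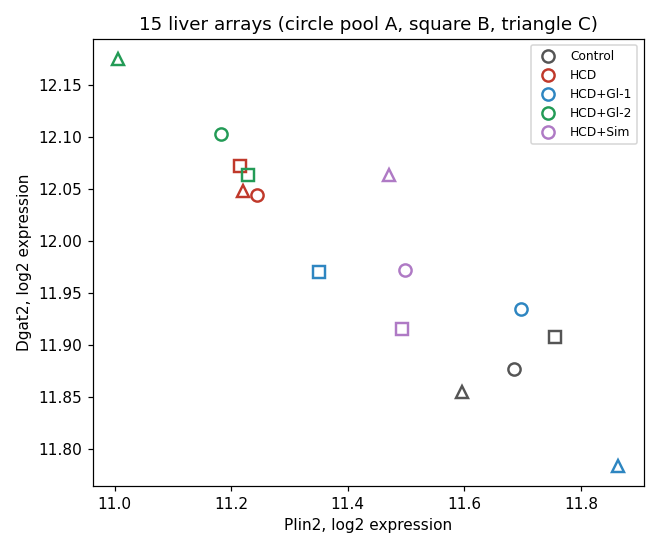
Plin2 against Dgat2 log2 expression in the 15 liver arrays, coloured by diet with a symbol for each pool. HCD+Gl-2 C has the lowest Plin2 (11.01) and the highest Dgat2 (12.18), and HCD+Gl-1 C the highest Plin2 (11.86) and the lowest Dgat2 (11.78).

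The liver profiles most like those of the 4 genes with a passed diet test were found over the same 15 arrays by Pearson's r among all genes. For Plin2 they were Dpy19l1 (0.90), Pnp2 (0.897) and Igsf5 (0.89). For Plin4 they were the cytochrome P450 genes Cyp2c44 (0.911) and Cyp2c37 (0.909) and Nnt (0.901), a mitochondrial transhydrogenase gene. For Pnpla2 they were Grn (0.894), Rhot2 (0.887) and Hnf4a (0.875), a hepatocyte transcription factor gene, and for Pnpla3 Samd10 (0.85), Samd14 (0.841) and Ism1 (0.829). These are the highest of 22080 values each and carry no test.

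Beyond the 10 genes, Fitm1, whose product partitions triglyceride into budding droplets and which is best known from muscle, was 9.92 ± 0.04 in Control, 10.66 ± 0.04 in HCD, 10.12 ± 0.03 in HCD+Gl-1, 10.10 ± 0.0032 in HCD+Gl-2 and 10.56 ± 0.02 in HCD+Sim livers (SD, n = 3 each). It rose 1.67-fold under HCD (0.74 ± 0.09 SE, adjusted p = 1.78e-06) and fell under HCD+Gl-1 (-0.55 ± 0.09, adjusted p = 0.000479) and HCD+Gl-2 against HCD (-0.56 ± 0.09, adjusted p = 0.000284). In brain it also passed under HCD (0.55 ± 0.09 SE, adjusted p = 0.00196), but at 5.52 ± 0.15 in Control and 6.07 ± 0.16 in HCD both means lay below every array median, and signal above background is not shown there. Of 12 such droplet protein genes, 1 passed higher and 0 lower for HCD against Control, 1 higher (Rab18, a droplet GTPase, 0.35 ± 0.10) and 1 lower for HCD+Gl-1, 0 and 1 for HCD+Gl-2, and 0 and 0 for HCD+Sim against HCD. In the same comparisons 1.34%, 2.48%, 1.7% and 1.1% of all genes passed in either direction. Under HCD 2 of 11 muscle markers passed, Myh1 and Tnni2, both lower. The mean of the 11 was 6.91 in Control and 6.43 in HCD livers, and their part in the Fitm1 values was not tested.

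Of 14 glycerolipid synthesis genes upstream of the DGAT step, Mogat1, a monoacylglycerol acyltransferase gene, passed under HCD (0.52 ± 0.14 SE, adjusted p = 0.0427), but at 4.92 ± 0.33 in Control and 5.44 ± 0.28 in HCD it lay below every array median, and signal above background is not shown. None passed for HCD+Gl-1, Agpat2 fell under HCD+Gl-2 (-0.29 ± 0.08, adjusted p = 0.0359), and Lpin1, the phosphatidate phosphatase gene, fell under HCD+Sim against HCD (-0.87 ± 0.18, adjusted p = 0.00775). Lpin1 was 9.60, 9.79 and 9.48 in HCD+Sim and 10.54, 10.35 and 10.60 in HCD. It varied between pools in Control (10.11, 10.50 and 9.65) and in HCD+Gl-2 (10.63, 9.62 and 10.97), where single arrays reached the HCD+Sim values. Agpat6, the gene of a microsomal glycerol-phosphate acyltransferase, was above Control by 0.38 ± 0.07 under HCD+Sim (adjusted p = 0.00248), by 0.47 ± 0.07 under HCD+Gl-1 and by 0.50 ± 0.07 under HCD+Gl-2. Agpat6 was 9.61, 9.44 and 9.68 in Control and 9.87, 9.78 and 9.85 in HCD livers. Part of these differences against Control was thus present under HCD alone. Of 9 other lipase and cofactor genes, Abhd5, the activator of ATGL, fell under HCD (-0.41 ± 0.08, adjusted p = 0.00206) while Pnpla2 itself gave -0.18 ± 0.10 (adjusted p = 0.581), and Lipa, the lysosomal lipase gene, fell under HCD+Gl-2 against HCD (-0.37 ± 0.09, adjusted p = 0.0198). None of the 9 passed for HCD+Gl-1 or HCD+Sim against HCD.

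Among 5 genes of steryl ester and lipoprotein assembly, Soat2, which esterifies cholesterol in hepatocytes, rose under HCD (0.33 ± 0.07 SE, adjusted p = 0.0112) and fell under HCD+Gl-1 (-0.42 ± 0.07, adjusted p = 0.00085) and HCD+Gl-2 against HCD (-0.40 ± 0.07, adjusted p = 0.00139). Tm6sf2, a gene of lipoprotein lipidation, fell under HCD+Gl-1 (-0.57 ± 0.12, adjusted p = 0.00573), and Soat1 rose under HCD+Sim against HCD (0.34 ± 0.08, adjusted p = 0.0188). Of 8 regulator genes, 3 rose under HCD: Srebf1, the lipogenic factor (1.14 ± 0.14, adjusted p = 1.78e-06), Pparg, known to drive droplet genes (0.65 ± 0.09, adjusted p = 3.57e-05), and Mlxipl, the carbohydrate response factor (0.36 ± 0.08, adjusted p = 0.00781). In that comparison 1.34% of all genes passed in either direction. Srebf1 fell under HCD+Gl-1 (-0.80 ± 0.14, adjusted p = 0.000891) and gave -0.39 ± 0.14 under HCD+Gl-2 against HCD (adjusted p = 0.183). Its HCD+Gl-1 arrays were 9.91, 10.26 and 9.35 in pools A, B and C, with C below both pools of which it is described as a mix. Ppara, the fatty acid oxidation factor whose known targets include Plin2, was -0.04 ± 0.12 under HCD (adjusted p = 0.962) and 0.21 ± 0.12 under HCD+Gl-1 against HCD (adjusted p = 0.391). For HCD against Control the median log2 fold change was 0.06 over the droplet protein list, 0.08 over glycerolipid synthesis, 0.01 over lipases and cofactors, -0.03 over steryl ester and lipoprotein genes and 0.01 over regulators, beside -0.01 over all genes. None of the genes of these 5 lists passed in a kidney diet comparison, and in brain Apob, the structural apolipoprotein of these particles, was the only one beside Fitm1 to pass (0.41 ± 0.08 under HCD+Gl-2 against HCD, adjusted p = 0.0273). Its brain means of 5.19 ± 0.06 in HCD and 5.60 ± 0.07 in HCD+Gl-2 also lay below every array median. In the same brains the mean of the 7 hepatocyte markers was 6.94 and 7.15, with Alb at 6.37 ± 0.30 and 7.12 ± 0.70 (0.75 ± 0.20 SE, adjusted p = 0.298), and their part in the Apob value was not tested.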

How the data were processed

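RNA pools of liver, kidney and brain were hybridized to 45 Affymetrix mouse gene ST arrays. The authors used oligo for RMA background correction and quantile normalization, reduced a batch effect by ComBat, and deposited log2 values, 1 probe set per gene, the most variable by interquartile range. The kept probe set is named for each gene, but the batches are not given in the sources used here. ComBat can narrow or shift differences between arrays. Tissue, diet and pool were read from the sample labels.

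The 22080 genes were fitted with limma 3.58.1 in R 4.3.3 over all 45 arrays and 15 group means, with Benjamini-Hochberg adjustment within each comparison. DE meant an absolute log2 fold change over 0.7 with an adjusted p of at most 0.05. The number of arrays limits precision. The 10 genes, the gene lists and the tests were chosen with earlier results of these data known. All 10 genes were named. From other lists up to 4 genes per comparison with the largest passed change were named, regulators in any case, and for members with a passed liver diet test the 3 most correlated genes. Alternatives were a fit per tissue, a fit of the compared groups, pools A and B only, the pool as a block, dim genes removed, renewed quantile normalization, trended robust moderation, no fold change threshold, each array left out and, chosen after seeing the data, HCD+Sim liver pools A and B left out together.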

Additional observations from a re-analysis of the deposited data

How the results depend on the processing

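Over 2100 values of the 10 genes in the diet comparisons under the alternatives, 0 called values changed sign, 39 lost and 11 gained an adjusted p of at most 0.05, and in the tissue comparisons 2 lost and 4 gained it among 330. In the fit on the arrays of the tissue and in the fit on the compared groups, 0 members passed in liver HCD against Control, HCD+Gl-1 and HCD+Gl-2 against HCD, HCD+Gl-2 against HCD+Gl-1, and HCD+Gl-1 and HCD+Sim against Control, while Plin2 passed in HCD+Gl-2 against Control. The cause was not tested. With pools A and B only, 0 passed in liver HCD+Gl-1 against HCD, HCD+Gl-2 against HCD+Gl-1, and HCD+Gl-1 and HCD+Sim against Control, and 1 in brain HCD against Control (Dgat2, 0.56). With dim genes left out (14046 genes kept, the 10 among them), 2 passed in liver HCD+Gl-1 against HCD and in HCD+Gl-2 against Control, and 1 in kidney HCD+Gl-2 against HCD. Renewed quantile normalization, which moved the median of all genes by at most 0.037, gave 2 in liver HCD+Gl-2 against Control, 1 in kidney HCD+Gl-2 against HCD and 0 in liver HCD+Gl-1 against Control, and trended robust moderation gave 2 and 1 in the first 2 of these. With no fold change threshold, 1 member instead of 0 was called in each of 7 liver comparisons. With HCD+Sim liver pools A and B left out, which leaves only pool C in that group, Plin4 was 0.88 above Control.

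With each array left out, the members that passed numbered 0 to 1 in liver HCD against Control, HCD+Gl-1 and HCD+Gl-2 against HCD, HCD+Gl-2 against HCD+Gl-1, HCD+Gl-1 and HCD+Sim against Control and brain HCD against Control, and 1 to 2 in liver HCD+Gl-2 against Control (2 without HCD+Gl-2 B), and DE members 0 to 1 in liver HCD+Sim against Control (1 without HCD+Sim B).

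With the pool letter as a replicate block, 2 members instead of 1 passed in liver HCD+Gl-2 against Control (Plin4, 0.48, adjusted p = 0.0162), and no other count changed. Over 48 same-letter pairs the correlation of deviations ran from -0.273 to 0.265, with 9 over 0.1. All 3 pairs were over 0.1 in liver HCD+Gl-2 against HCD+Gl-1 (0.142, 0.265 and 0.189) and in no other diet comparison. There the block left Plin2 as the 1 member that passed (-0.50, adjusted p = 0.00928).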
